A study of Macaca mulatta with 16 samples.

Results

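Genes of hyaline cartilage were followed in the lungs of 16 rhesus macaque fetuses, to ask how far they changed with treatment and gestation and how far they varied with the amount of airway wall in each tissue piece. They were the 10 genes COL2A1, COL9A1, COL9A2, COL11A1, COL11A2, ACAN, MATN1, MATN3, HAPLN1 and CNMD. Each symbol matched 1 row among the 22515 genes of the count table, and all 10 passed the filter on low counts, which left 19199 genes for testing.

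RNA sequencing was performed on 1 lung library per animal. The preterm controls (n = 4) were untreated and delivered at 131 to 135 days of gestation, and the term controls (n = 2) were untreated and delivered at 156 and 157 days. LPS 16h animals (n = 4) received 1 mg of intraamniotic bacterial lipopolysaccharide (LPS), which inflames the chorioamnion and the fetus, at 129 or 130 days and were delivered 16 hours later. LPS 5d animals (n = 3) received the same dose at 126 to 129 days and were delivered 5 days later. LPS + Beta-Ac animals (n = 3) received the same LPS at 126 or 127 days, with 0.125 mg/kg of betamethasone-acetate (Beta-Ac), a slow-release corticosteroid, injected into the muscle of the dam, and were also delivered after 5 days. No group had Beta-Ac alone here, so its own effect cannot be told apart from that of the combination. Library totals ranged from 20169363 to 48052891 counts, and those of LPS 16h (30596371 to 48052891) lay above those of every other group. Pairs of animals within a group differed by far more than counting noise, with a chi-square of 32.5 to 173 per degree of freedom, so no library was a copy of another.

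Hyaline cartilage forms the rings of the trachea and the plates in the walls of the bronchi, and the distal airspaces have none. Its chondrocytes lay down fibrils of type II collagen with type XI collagen inside and type IX collagen on the surface. Aggrecan, a large proteoglycan, fills the space between fibrils and holds water, matrilins bridge the components, and the transcription factor SOX9 drives many of these genes. In bulk lung RNA, fewer cartilage cells in a piece, less RNA per cartilage cell and a change of the same genes in other cells cannot be told apart. The frozen pieces came from the left lung per the study's methods, and where in the left lung is not stated in the sources used here. All levels below are CPM (counts relative to the library total) after TMM scaling of the totals, a unit that suits comparison of 1 gene between animals but not of 1 gene with another, as CPM is not per transcript length.

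COL2A1 (ENSMMUG00000011444) encodes the chain of type II collagen, the main fibril of cartilage. In preterm controls it stood at 5.10 CPM in animal 092, 8.04 in 101, 23.9 in 113 and 87.7 in 209. LPS 16h animals held 4.87, 13.9, 6.11 and 8.90 CPM. LPS 5d animals held 2.79, 4.37 and 3.46 CPM, LPS + Beta-Ac animals 4.52, 3.19 and 3.20 CPM, and term controls 2.06 and 1.62 CPM. Preterm controls therefore spread over the widest range of any group, from 117 to 2411 counts, and all of them lay above every LPS 5d, LPS + Beta-Ac and term animal. Their mean of 31.2 ± 38.6 CPM (SD, n = 4) was set by animal 209. Animals 113 and 209 were delivered at 135 days of gestation, 101 at 131 days and 092 between these ages. The part of age within the preterm controls was not tested.

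The chains of the collagens that dress the fibril were less separated by group. COL9A1, of type IX collagen, ranged from 74.4 to 214 CPM in preterm controls (214, 74.4, 124 and 176 CPM). It ranged from 56.5 to 100 CPM in LPS 16h, 54.0 to 107 CPM in LPS 5d, 55.1 to 90.4 CPM in LPS + Beta-Ac, and was 89.5 and 43.7 CPM in term controls. Its highest preterm level was in animal 092, not in 209. COL9A2, another chain of type IX collagen, was 10.9, 11.6, 4.5 and 36.4 CPM in preterm controls, 3.45 to 12.4 CPM in LPS 16h, 8.42 to 11.8 CPM in LPS 5d, 9.64 to 15.2 CPM in LPS + Beta-Ac, and 7.68 and 4.91 CPM in term controls. The groups overlapped for both genes, apart from COL9A2 in the 5-day groups, which lay above both term controls.

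COL11A1 and COL11A2 encode chains of type XI collagen, which sits in the core of the fibril. COL11A1 measured 4.44, 5.87, 4.61 and 18.1 CPM in preterm controls and between 2.90 and 7.55 CPM in the other 12 animals. COL11A2 measured 3.05, 6.56, 2.98 and 27.3 CPM in preterm controls and between 1.77 and 7.87 CPM in the others. For both, animal 209 stood alone and the remaining 3 preterm controls lay within the range of the other 12 animals.

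ACAN (ENSMMUG00000000554), the core protein of aggrecan, was 2.61, 4.25, 4.58 and 13.8 CPM in preterm controls and 4.58, 5.87, 5.48 and 5.26 CPM in LPS 16h. It was 2.07, 2.53 and 0.901 CPM in LPS 5d, 1.20, 1.23 and 0.655 CPM in LPS + Beta-Ac, and 2.28 and 1.87 CPM in term controls. Every LPS 5d, LPS + Beta-Ac and term animal lay below every preterm and LPS 16h animal. HAPLN1, the link protein that fastens aggrecan to hyaluronan, was 2.27, 2.03, 0.568 and 10.3 CPM in preterm controls. It was 0.462, 2.13, 1.98 and 0.669 CPM in LPS 16h, 0.254, 1.15 and 0.0474 CPM in LPS 5d, 0.113, 0.253 and 0.308 CPM in LPS + Beta-Ac, and 1.40 and 0.0323 CPM in term controls. These low levels rested on few reads, with 3 to 8 counts in the LPS + Beta-Ac libraries and 1 count in each of LPS 5d animal 242 and term animal 201.

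MATN3 (ENSMMUG00000001579), a matrilin of the growing skeleton, had a different pattern from the rest. It was 27.8, 26.9, 35.5 and 56.3 CPM in preterm controls and 37.7 and 58.0 CPM in term controls. LPS 16h animals held 6.36, 9.12, 3.15 and 2.68 CPM, LPS 5d animals 9.47, 10.9 and 10.2 CPM, and LPS + Beta-Ac animals 4.03, 4.82 and 9.17 CPM. The highest LPS-exposed animal, at 10.9 CPM, lay below the lowest untreated animal, at 26.9 CPM. MATN1, the matrilin typical of tracheal cartilage, rested on few reads, at 0.231 to 2.29 CPM (5 to 63 counts) in preterm controls and 0.254 to 1.09 CPM elsewhere. CNMD, which encodes chondromodulin and keeps vessels out of cartilage, was 0.532 to 2.80 CPM in preterm controls and 0.391 to 1.52 CPM elsewhere.

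**Figure D1:**
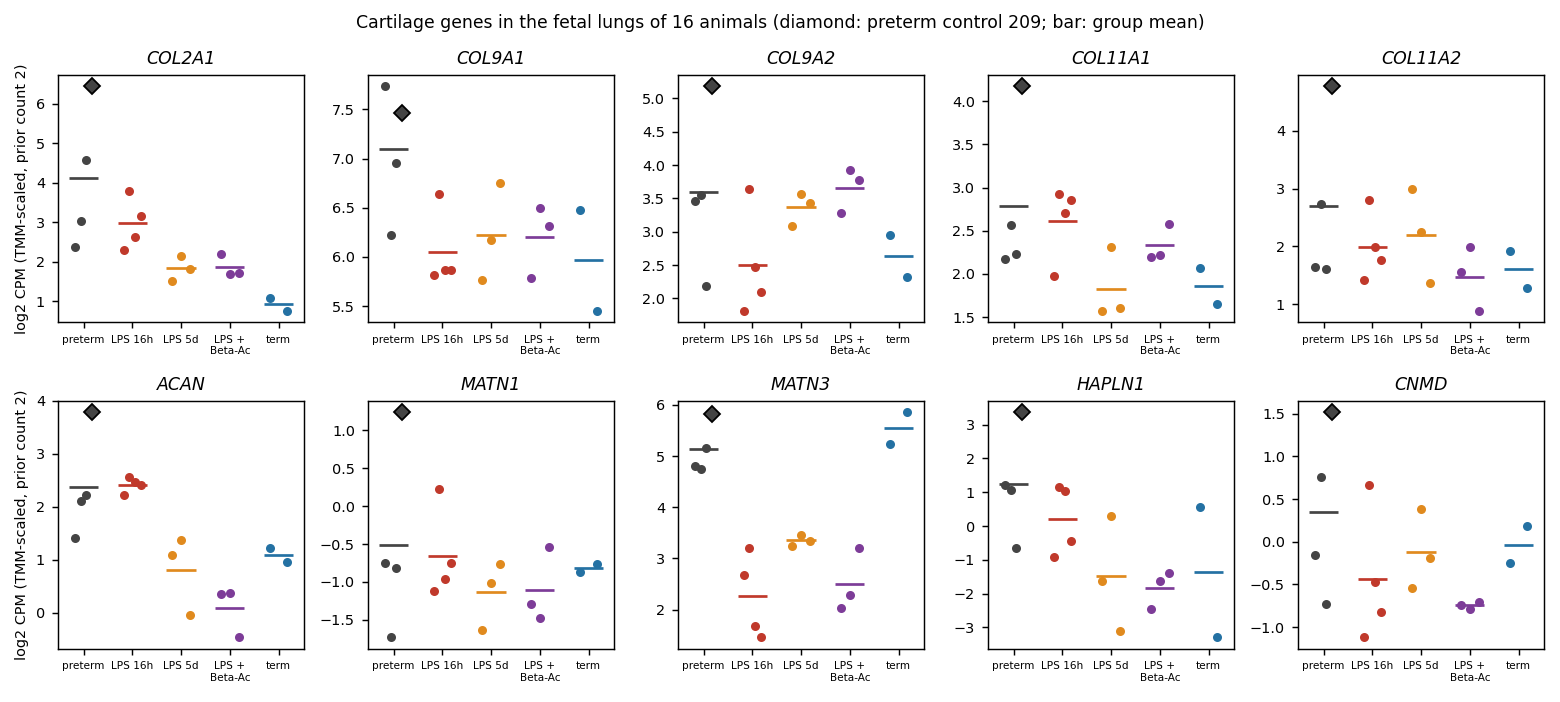
Level of each of the 10 cartilage genes in each of the 16 animals. The vertical axes give log2 CPM (TMM-scaled, prior count 2), each panel has its own scale, points are animals, bars are group means and the diamond is preterm control 209. Animal 209 is the highest of 16 for 8 genes, and for MATN3 the 10 LPS-exposed animals lie below all 6 untreated animals.

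Animal 209 carried most of the spread among the preterm controls. It was the highest of the 16 animals for 8 of the 10 genes and was exceeded only by animal 092 for COL9A1 and by term animal 201 for MATN3. Relative to the median of the other 3 preterm controls, it held 10.9 times as much COL2A1, 8.96 times COL11A2, 5.04 times HAPLN1, 4.61 times MATN1, 3.93 times COL11A1, 3.38 times CNMD, 3.33 times COL9A2 and 3.24 times ACAN. The ratio was smallest for MATN3, at 2.03, and COL9A1, at 1.42. SOX9, which was not among the 10 genes, was also highest in animal 209, at 15.6 CPM, beside 4.26 to 8.89 CPM in the other preterm controls, and term animal 200 was close at 15.3 CPM. Of 24 other cartilage matrix genes, 5 were highest of 16 in animal 209. They were CILP2, at 4.73 CPM, CYTL1, at 2.84 CPM, VIT, at 1.89 CPM, and SNORC and UCMA, both under 0.4 CPM. The share of all genes that were highest in animal 209 was not counted, to set beside these counts and those below.

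The same library was the highest of 16 for the lists of ciliated and of basal and secretory airway cells. Of 11 ciliated cell genes, 10 were highest of 16 in animal 209, and their summed level was 440 CPM there, beside a preterm median of 151 CPM. FOXJ1, the master regulator of motile cilia, was 65.3 CPM, with 22.9 to 35.6 CPM in the other preterm controls. Of 9 basal and secretory airway genes, 5 were highest in animal 209, and the list summed to 598 CPM, beside a preterm median of 107 CPM. KRT5, the keratin of basal cells, was 45.5 CPM, with 0.532 to 19.2 CPM in the other preterm controls. Of 9 genes of airway nerves and neuroendocrine cells, 5 were highest there, all at 2.55 CPM or less. Of the lists for chest wall, bone ranked 14th of 16 in that library by its sum and skeletal muscle 15th. BGLAP (52.7 CPM) and PHEX (37.4 CPM) made up most of the bone sum there. Every library held both, at 41.3 and 16.9 CPM or more, so that rank says little of rib tissue. No gene of either list was highest of 16 there. Above the other preterm controls were 2 of 7 bone genes and 0 of 6 skeletal muscle genes. IBSP, a bone matrix protein, was 0.109 CPM, too few reads to compare. The smooth muscle list ranked 4th, the mesothelium list 3rd and the distal epithelium list 13th. The submucosal gland list ranked 12th of 16, with LTF 12th and PIGR 13th, both of which were called higher in 2 or more LPS groups, and its sum of 57.1 CPM was the highest of the preterm controls, beside 20.1 to 28.5 CPM.

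Differential expression was tested with limma on all 19199 genes. A gene is called where the Benjamini-Hochberg adjusted p is under 0.05 and the log2 fold change is 1 or more in either direction, the limits the study used. A moderated F test over the 5 groups found a difference for 3 of the 10 genes, against 44.9% of all genes tested. These were MATN3 (limma adjusted p = 3.51e-05), ACAN (0.00186) and COL2A1 (0.0219). Without term animal 200 it found 5, and without animal 209 the same test gave 0.00815 for COL2A1, 0.000425 for ACAN and 6.97e-05 for MATN3. The share of each gene's variance that lay between groups was 88.2% for MATN3, 75.2% for ACAN and 61.5% for COL2A1. It was 48.8% for COL9A1 and HAPLN1, 38.2% for COL11A1, 35.8% for COL9A2, 31.1% for CNMD, 24.2% for COL11A2 and 13.2% for MATN1. The median over the 10 genes was 43.5%, beside 55.9% over all genes tested.

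At 16 hours after LPS, MATN3 and COL9A1 had fallen relative to preterm controls and the other 8 genes did not pass the test. These 2 of 10 genes compare with 14.4% of all genes called, and 6.07% called lower. MATN3 fell by 2.87 on the log2 scale (SE 0.37, limma adjusted p = 2.66e-05), from a mean of 36.6 ± 13.7 to 5.33 ± 3.01 CPM (SD, n = 4 each). COL9A1 fell by 1.04 (SE 0.34, adjusted p = 0.0253), from 147 ± 60.9 to 68.3 ± 21.1 CPM, with overlapping groups. MATN3 was the 1 of 10 genes without overlap, against 33.6% of all genes. ACAN differed by 0.03 (SE 0.42), and COL2A1 by -1.13 (SE 0.66, adjusted p = 0.194). The COL9A1 call was close to both limits. It was lost without animal 026, 035, 038, 092 or 209, and without animal 209 the change was -0.92 with an adjusted p of 0.0642. Leaving out any of 026, 035, 038 or 209 left 1 gene called. Without animal 029 or 113, COL9A2 was called as well, at -1.44 and -1.56, and without animal 092 COL2A1 was, at -1.71.

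At 5 days after LPS, MATN3, ACAN and COL2A1 were lower than in preterm controls. These 3 of 10 genes compare with 4.83% of all genes called and 2.23% called lower. MATN3 fell by 1.77 (SE 0.40, adjusted p = 0.00868), to 10.2 ± 0.734 CPM (SD, n = 3). ACAN fell by 1.57 (SE 0.45, adjusted p = 0.0288), to 1.83 ± 0.840 CPM. COL2A1 fell by 2.28 (SE 0.71, adjusted p = 0.0454), to 3.54 ± 0.794 CPM. HAPLN1 was at -2.73 (SE 1.03, adjusted p = 0.0955) and was not called. These 3 of 10 genes did not overlap with the preterm controls, a share near the 29.2% of all genes tested that did not overlap. The calls of COL2A1 and ACAN were close to the threshold: with limma-voom, which weights each value by its precision, the adjusted p was 0.102 for COL2A1 and 0.0538 for ACAN. The COL2A1 call held without animal 029, 092, 101 or 209 and was lost on leaving out any of the other 12. Leaving out animal 113, 239 or 242 left 1 gene called, MATN3, while COL9A1 was called as well without animal 101, at -1.16.

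LPS + Beta-Ac gave calls for the same 3 genes, MATN3, ACAN and COL2A1, all lower than in preterm controls, against 6.5% of all genes called and 2.44% called lower. MATN3 fell by 2.62 (SE 0.40, adjusted p = 0.000518), to 6.0 ± 2.77 CPM (SD, n = 3). ACAN fell by 2.30 (SE 0.45, adjusted p = 0.0027), to 1.03 ± 0.325 CPM. COL2A1 fell by 2.24 (SE 0.71, adjusted p = 0.0436), to 3.63 ± 0.765 CPM. Without overlap were 4 of 10 genes, these 3 and HAPLN1, against 30.8% of all genes. HAPLN1 missed the threshold, at -3.08 (SE 1.03, adjusted p = 0.0549), and its fold change depends on the prior count because of its few reads. The COL2A1 call held without animal 026, 029, 092, 101 or 209 and was lost on leaving out any of the other 11. HAPLN1 was called without animal 113, 200, 201, 240 or 242, and COL9A1 without animal 101. Both 5-day comparisons share the preterm controls, so their calls are not independent of each other.

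No difference between LPS with and without Beta-Ac passed the test. Compared directly, LPS + Beta-Ac and LPS 5d gave 0 of 10 calls with limma, 0 also at an unadjusted p below 0.05, and 0.104% of all genes called. ACAN was at -0.72 (SE 0.48) and MATN3 at -0.85 (SE 0.43). COL2A1 was at 0.04 (SE 0.76). Differences of the size of these standard errors could not be seen with 3 animals a group.

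In term controls COL2A1 was the 1 called gene, against 2.07% of all genes called and 0.953% called lower. It fell by 3.19 (SE 0.81, adjusted p = 0.0434), to 1.84 ± 0.313 CPM (SD, n = 2). MATN3 was at 0.42 (SE 0.45, adjusted p = 0.684), and its term mean of 47.8 ± 14.3 CPM overlapped the preterm controls. ACAN was at -1.29 (SE 0.51, adjusted p = 0.179). Without overlap between the groups were 3 of 10 genes, COL2A1, ACAN and COL11A1, against 26.4% of all genes. The COL2A1 call was fragile. It was lost on leaving out any of 12 animals (026, 035, 038, 113, 200, 201, 239, 240, 242, 248, 249 or 255), 0 genes then being called, and it held without 029, 092, 101 or 209.

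Direct comparisons among the LPS and term groups were added after the data were seen. Between LPS 5d and LPS 16h, 2 of 10 genes were called, against 14.6% of all genes. ACAN was lower at 5 days by 1.61 on the log2 scale (a log2 fold change of -1.61, SE 0.45, adjusted p = 0.0117), and MATN3 was higher by 1.10 (SE 0.40, adjusted p = 0.0444). The ACAN call was lost without animal 242 (-1.18, adjusted p = 0.0729), and the MATN3 call without 035, 038, 113, 239, 240 or 242 (adjusted p up to 0.127). With the smooth muscle score described below as a covariate both calls were lost, ACAN at -1.39 (adjusted p = 0.0626) and MATN3 at 0.62 (adjusted p = 0.274), and with limma-voom that of MATN3 was lost, at 1.12 (adjusted p = 0.0571). Against term controls, MATN3 was lower in LPS + Beta-Ac by 3.04 (a log2 fold change of -3.04, SE 0.48, adjusted p = 0.0132), the 1 gene called against 0.568% of all genes. That call was lost without animal 201 (-2.73, adjusted p = 0.127) or 248 (-2.80, adjusted p = 0.0591). LPS 5d against term gave 0 calls among the 10 genes with limma, 1 at an unadjusted p below 0.05, and 0.0625% of all genes, with MATN3 at -2.19 (SE 0.48, adjusted p = 0.11).

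Ordered by their group means, MATN3 levels ran from term and preterm controls, through LPS 5d and LPS + Beta-Ac, to LPS 16h. Term and preterm controls did not differ beyond their spread, and preterm controls and LPS 5d did. LPS 5d and LPS + Beta-Ac did not pass the test, and LPS + Beta-Ac was not compared with LPS 16h. For ACAN the order was preterm controls, LPS 16h, term controls, LPS 5d and LPS + Beta-Ac. Of these neighbours, preterm controls and LPS 16h, term controls and LPS 5d, and the 2 groups at 5 days did not pass the test, and LPS 16h was not compared with term controls. For COL2A1 it was preterm controls, LPS 16h, LPS + Beta-Ac, LPS 5d and term controls. No test separated any 2 neighbours in that order that were compared.

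Leaving out animal 209 shrank the shift of the 10 genes but left most calls. The median log2 fold change over the 10 genes moved from -0.91 to -0.35 for LPS 16h, from -0.91 to -0.62 for LPS 5d, from -1.16 to -0.74 for LPS + Beta-Ac and from -1.03 to -0.45 for term controls. The median over all genes tested lay between -0.09 and 0.00 in these comparisons with animal 209 included. Genes lower than in preterm controls went from 9 to 6 of 10 in LPS 16h, from 10 to 8 in LPS 5d, from 9 to 7 in LPS + Beta-Ac and from 9 to 7 in term controls. The calls without it were MATN3 alone in LPS 16h, MATN3, ACAN and COL2A1 in LPS 5d and in LPS + Beta-Ac, and COL2A1 in term controls. COL2A1 was then at -1.49 (SE 0.48, adjusted p = 0.0479) in LPS 5d, -1.46 (SE 0.48, adjusted p = 0.0482) in LPS + Beta-Ac and -2.40 (SE 0.53, adjusted p = 0.0179) in term controls. COL11A1 in LPS + Beta-Ac went from -0.46 to 0.01.

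**Figure D2:**
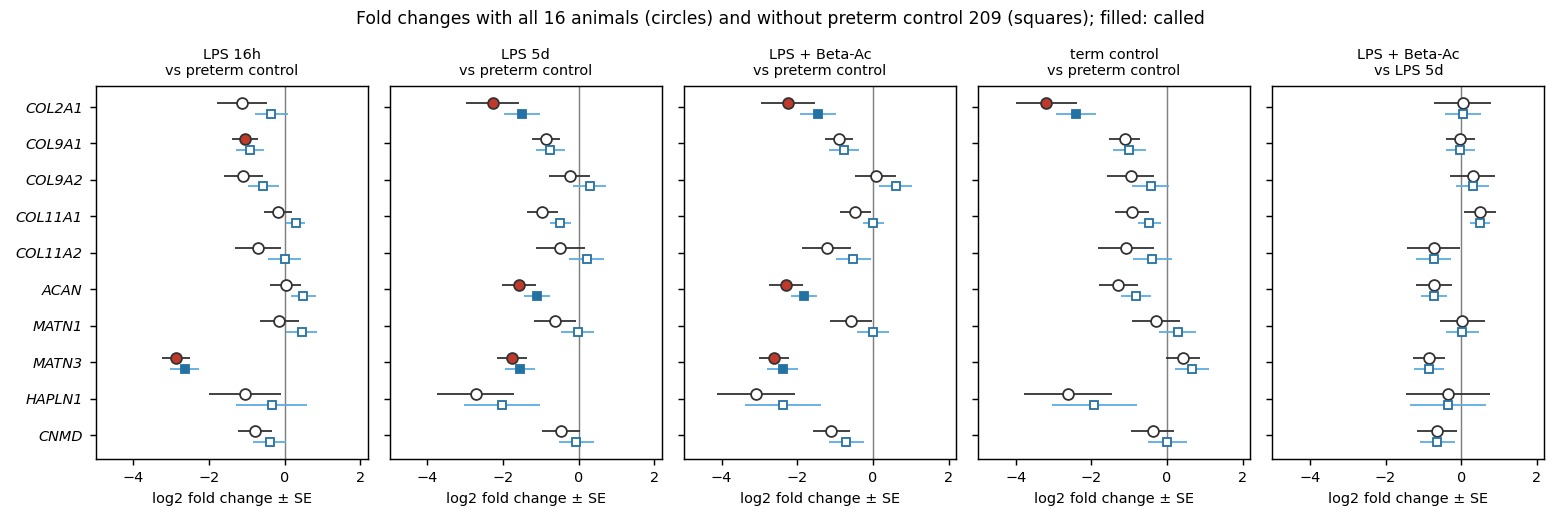
Log2 fold changes of the 10 cartilage genes in the 5 planned comparisons, with their standard errors as bars. Circles are the fit to all 16 animals, squares the fit without preterm control 209, and filled symbols are called genes. Without animal 209 most squares of the 4 comparisons with preterm controls lie nearer to 0, while MATN3 stays at -2.64, -1.55 and -2.39 in the LPS groups.

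The airway epithelium in each piece was gauged by a score, the mean over 19 ciliated, basal and secretory airway genes of log2 CPM centred per gene. It ran from -2.05 in term animal 201 to 2.71 in animal 209, and each group spanned more than 1 log2 unit. The LPS + Beta-Ac scores were all negative (-1.63, -0.55 and -0.75), while every other group held scores of both signs. The score was therefore not free of the groups. It is of epithelium alone, and how far it follows the wall that bears cartilage was not tested. Preterm animal 113 scored -1.84, while its COL2A1 level of 23.9 CPM was exceeded only by that of animal 209. In 4 of the 5 groups the animal with the highest score also had the highest mean of the 10 cartilage genes. These were 209 among preterm controls, 029 in LPS 16h, 240 in LPS 5d and 200 in term controls. With 2 to 4 animals a group such matches arise often without a link, and their number was not tested. Animal 029 was highest of its group for 10 of 10 genes, 209 for 9, and 240 and 200 for 7 each. In LPS + Beta-Ac the top animals were 249 for the score and 255 for the cartilage genes, and 249 was highest for 4 of 10 genes.

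**Figure D3:**
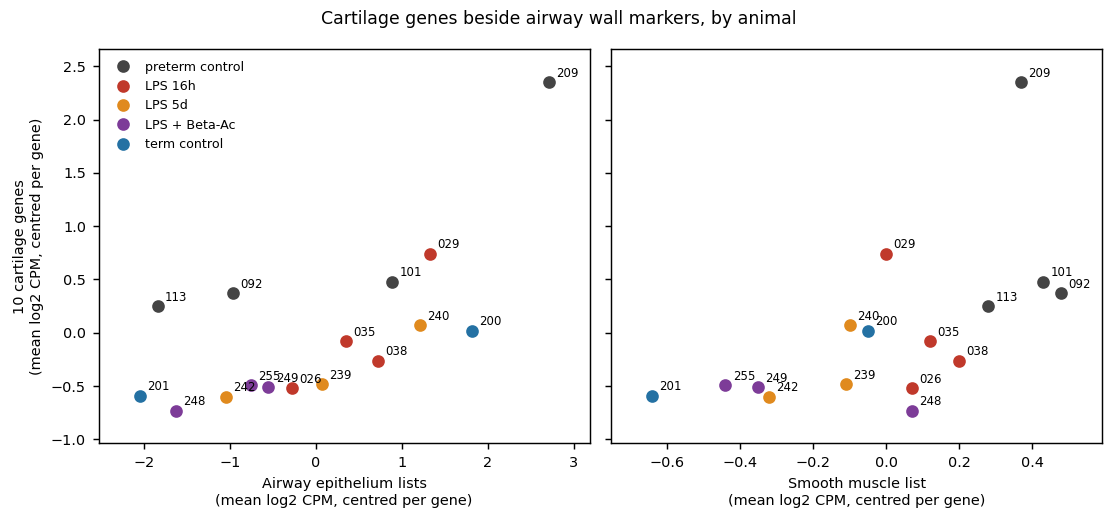
Mean centred log2 CPM of the 10 cartilage genes (vertical axis) against that of the airway epithelium lists (left) and of the smooth muscle list (right), 1 point per animal, coloured by group. Animal 209 is at 2.71 on the airway epithelium axis and stands apart from the other 15, and the 4 preterm controls hold the highest smooth muscle values, 0.28 to 0.48.

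Fitted beside the group means in limma, the slope on this score passed the threshold for 4 of 10 genes, against 2.67% of all genes tested. HAPLN1 rose by 0.92 log2 units per unit of score (SE 0.13, adjusted p = 0.000505), COL11A2 by 0.49 (SE 0.11, adjusted p = 0.0283), COL9A2 by 0.42 (SE 0.095, adjusted p = 0.0283) and COL11A1 by 0.32 (SE 0.071, adjusted p = 0.0247). The score went with 81.5% of the within-group variance of HAPLN1, 64.2% of that of COL11A1 and 60.5% of that of COL9A2 and COL11A2. It went with 43.2% for ACAN, 39.6% for CNMD, 23.6% for COL2A1 and 16.4% for MATN1, and with only 2.27% for MATN3 and 6.83% for COL9A1. The median was 41.4%, beside 8.36% over all genes. Without animal 209, 1 of 10 slopes passed, against 1.86% of all genes, namely HAPLN1 at 0.95 (SE 0.17, adjusted p = 0.00673), and the median share was 17.7%, beside 11.7%. For COL2A1 the slope was then 0.02 (SE 0.15).

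With the airway epithelium score as a covariate, more of the 10 genes were called in LPS 16h, LPS 5d and term controls. The number in LPS + Beta-Ac stayed the same. In LPS 16h 4 were called, COL9A1, COL9A2, MATN3 and HAPLN1, against 14.6% of all genes in that fit. In LPS 5d 4 were called, COL2A1, ACAN, MATN3 and HAPLN1, against 5.21%. In LPS + Beta-Ac it was 3, ACAN, MATN3 and HAPLN1, against 7.52%, and in term controls 2, COL2A1 and HAPLN1, against 2.65%. MATN3 hardly moved, at -2.89 in LPS 16h, -1.77 in LPS 5d and -2.55 in LPS + Beta-Ac. HAPLN1 was called in all 4 comparisons with smaller standard errors, and its fold was larger only in LPS 16h. It went from -2.73 (SE 1.03) to -2.62 (SE 0.48, adjusted p = 0.00197) in LPS 5d, from -3.08 (SE 1.03) to -2.0 (SE 0.51, adjusted p = 0.0115) in LPS + Beta-Ac and from -2.62 (SE 1.17) to -2.33 (SE 0.55, adjusted p = 0.0222) in term controls. In LPS 16h it went from -1.05 (SE 0.96) to -1.35 (SE 0.45, adjusted p = 0.0273). The COL2A1 call in LPS + Beta-Ac was lost, at -1.84 (SE 0.67, adjusted p = 0.0721).

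Smooth muscle, the other tissue of the airway wall, moved with the groups. Summed over 12 genes it was 2070 to 2650 CPM in preterm controls, 1670 to 2150 CPM in LPS 16h, 1220 to 1420 CPM in LPS 5d, 1170 to 1520 CPM in LPS + Beta-Ac, and 981 and 1550 CPM in term controls. It lies in vessel walls as well as airways, and these lists do not separate the sources. With limma, 0 of the 10 genes and 0 of all 19199 had a slope on the smooth muscle score past the threshold within groups, and 1 and 818 did at an unadjusted p below 0.05. With that score as a covariate, MATN3 was the 1 gene called in each LPS group against preterm controls, and 0 were called in term controls against preterm controls. The score and the preterm group cannot be told apart in that fit, because every preterm control had a higher smooth muscle score than every other animal.

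COL2A1 was also set against 4 single markers of the airway wall over the 16 animals. With MYH11, smooth muscle myosin, Pearson's r was 0.55 (permutation p = 0.0257, adjusted 0.103) and Spearman's rho was 0.67 (permutation p = 0.00596, adjusted 0.0238), two-sided. Within groups, r was -0.24 (permutation p = 0.508), so that relation lay between groups. Leaving out the 2 animals farthest from the COL2A1 median gave r = 0.36 and rho = 0.56 (adjusted permutation p = 0.154), leaving out animal 209 gave r = 0.45 and rho = 0.62 (adjusted permutation p = 0.0636), and scaling by library totals gave rho = 0.48 (adjusted permutation p = 0.264). The relation with MYH11 therefore did not hold under these settings. With FOXJ1, r was 0.26 (permutation p = 0.34) and rho was 0.06 (permutation p = 0.837), and r was 0.46 within groups (permutation p = 0.109). Without those 2 animals r with FOXJ1 was -0.02, or 0.63 within groups (permutation p = 0.0756, adjusted 0.114). Without animal 209 it was -0.09, or 0.22 within groups. With KRT5, r was 0.40 (permutation p = 0.127) and rho was 0.30 (permutation p = 0.256), with r = 0.35 within groups. Without those 2 animals r with KRT5 was 0.51, or 0.56 within groups (permutation p = 0.0319, adjusted 0.114). Leaving out animal 209 gave 0.13, or -0.09 within groups. With SCGB1A1, the club cell secretory protein, r was 0.18 (permutation p = 0.509) and rho was 0.22 (permutation p = 0.414), with r = 0.12 within groups. Without those 2 animals r with SCGB1A1 was 0.49, or 0.46 within groups (permutation p = 0.0851, adjusted 0.114). Leaving out animal 209 gave 0.05, or -0.13 within groups. The adjusted permutation p of r was 0.454 for FOXJ1, 0.254 for KRT5 and 0.509 for SCGB1A1 over these 4 relations.

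The 10 genes did not move as 1 block. Over the 16 animals the median correlation of the 45 pairs was 0.54, over 15 animals without 209 it was 0.20, and with group means removed it was 0.53. These values describe libraries that share their depth and composition. MATN3 was the least tied to the others, with a median of 0.26 over 16 animals and 0.00 without 209. Term animal 201 held the most MATN3 of the 16 animals, 58.0 CPM, and the least COL2A1, 1.62 CPM. Which cells the MATN3 RNA came from was not tested. The 10 genes of the table most like the mean of the cartilage genes over 16 animals were SERPINB5 (r = 0.91), GPT2 (0.90), OTX1 (0.88), HS3ST6 (0.86), IFT22 and TCTE1 (0.84), STPG1, FOXC1 and CFAP58 (0.83), and DRP2 (0.82). In all of them but IFT22 animal 209 was the highest of 16. Chosen again over 15 animals, the list shared 1 gene with the first, IFT22, which led it at 0.92 and was followed by CTBP2 at 0.91 and SLC6A8 at 0.89.

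Other genes of cartilage matrix, read from a list of 24 of which 21 were tested, had most of their calls at 16 hours, as all genes tested did. In LPS 16h 6 were called lower and 2 higher, beside 6.07% and 14.4% of all genes called lower and in either direction, and the median log2 fold change was -0.61, beside -0.09 over all genes. COL27A1, a fibrillar collagen of cartilage, fell by 1.22 (SE 0.17, adjusted p = 4.4e-05), and MATN2 fell by 1.06 (SE 0.16, adjusted p = 9.03e-05). CHAD, chondroadherin, EPYC, epiphycan, CYTL1 and CLEC3A were the other 4. CHRDL2, a BMP antagonist, rose by 3.36 (SE 0.19, adjusted p = 4.33e-09), from a mean of 1.85 to 19.4 CPM, and HAPLN3, a link protein, rose by 1.65 (SE 0.25, adjusted p = 0.000119). Both were back near the preterm level at 5 days, with means of 1.8 and 11.5 CPM. In LPS 5d and in LPS + Beta-Ac the 1 gene of 21 called (4.83% and 6.5% of all genes) was CLEC3A, at means of 0.0474 and 0.0508 CPM beside 0.619 CPM in preterm controls, too few reads for a fold change. In term controls it was MATN2 (2.07% of all genes called), which fell by 1.05 (SE 0.19, adjusted p = 0.0102).

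Of 21 regulators of chondrocytes 19 were tested. Called lower and higher were 2 and 1 of 19 in LPS 16h (14.4% of all genes were called), 1 and 1 in LPS 5d (4.83%), 2 and 1 in LPS + Beta-Ac (6.5%) and 0 in term controls (2.07%). SOX9 was called in no comparison with preterm controls and was at 0.68 (SE 0.40) in LPS 16h and -0.56 (SE 0.43) in LPS 5d. Between these LPS times it was lower at 5 days by 1.25 (a log2 fold change of -1.25, SE 0.43, adjusted p = 0.0361). IHH, the hedgehog ligand of growing cartilage, which is also made by epithelia, fell by 2.44 (SE 0.49, adjusted p = 0.00123) in LPS 16h, and FGFR3, a receptor that slows chondrocyte division, fell by 1.20 (SE 0.18, adjusted p = 9.68e-05). In LPS 5d NOG, a BMP antagonist, fell by 1.41 (SE 0.29, adjusted p = 0.0051), and SOX6, a partner of SOX9, rose by 1.38 (SE 0.38, adjusted p = 0.0222). In LPS + Beta-Ac NOG and FOXC1 fell, by 1.33 and 1.01, and RUNX3 rose by 1.10, as it did in LPS 16h, by 1.21. In term controls 0 of 19 were called with limma, and 1 had an unadjusted p below 0.05. RUNX3 is also a gene of lymphocytes.

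Of 10 genes that make or sulfate the glycosaminoglycan chains of proteoglycans, PAPSS2, which supplies the sulfate donor, fell by 1.18 (SE 0.11, adjusted p = 1.06e-06) in LPS 16h. CHST11, a chondroitin sulfotransferase, rose by 1.5 (SE 0.17, adjusted p = 7.15e-06) in the same animals. With limma, 0 of 10 were called in the 5-day groups, where 4 in LPS 5d and 3 in LPS + Beta-Ac had an unadjusted p below 0.05, and in term controls CHST3 rose by 1.27 (SE 0.32, adjusted p = 0.0401). These genes are used in many lung cells besides chondrocytes. Among all genes tested, 14.4% were called in LPS 16h, 4.83% in LPS 5d, 6.5% in LPS + Beta-Ac and 2.07% in term controls.

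Lists for the other tissues of a lung piece were read beside these. The shares of all genes called were 14.4% in LPS 16h, 4.83% in LPS 5d, 6.5% in LPS + Beta-Ac and 2.07% in term controls. Smooth muscle had 1 gene called lower and 1 higher of 12 in LPS 16h (CNN1 and DES), MYOCD lower in both 5-day groups, and ACTA2 and ACTG2 lower in term controls. Of 11 ciliated genes 0 were called with limma in any comparison with preterm controls, with 3 in LPS 16h, 1 in LPS + Beta-Ac and 0 in LPS 5d and term controls at an unadjusted p below 0.05. Of 8 basal and secretory genes 1 was called, DLK2, higher in LPS 16h. In LPS + Beta-Ac, 11 of 11 ciliated and 7 of 8 basal and secretory genes were lower than in preterm controls. Their median log2 fold changes were -0.83 and -1.57, beside -0.01 over all genes. Term controls had the same counts lower, at medians of -0.22 and -0.40. Lower were 4 ciliated and 2 basal and secretory genes in LPS 16h, and 5 and 5 in LPS 5d. Of 3 submucosal gland genes PIGR was higher in all 3 LPS groups and LTF in LPS 16h and LPS + Beta-Ac, and neither is confined to glands, LTF being also a neutrophil gene. Among the nerve and neuroendocrine genes CALCA was called higher in LPS 16h. Distal epithelium gave 5 calls of 8 in LPS 16h (CLIC5, RTKN2 and HOPX lower, LAMP3 and ABCA3 higher), and 1, 2 and 1 higher in LPS 5d, LPS + Beta-Ac and term controls. Bone markers gave DMP1 and SP7 lower of 6 in LPS 16h and MEPE higher in LPS + Beta-Ac. Skeletal muscle gave TNNC2 higher of 4 in LPS 16h, and its summed level was 40.4 CPM in LPS 5d animal 240 and 3.80 to 4.79 CPM in the other LPS 5d animals. Mesothelium gave UPK3B lower and LRRN4 higher of 5 in LPS 16h. Beyond the airway epithelium and smooth muscle scores fitted above, the part of these tissues in the cartilage results was not tested.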

How the data were processed

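Bulk RNA sequencing counts of 16 fetal lungs in 5 groups were analysed, grouped by the labels. The authors sequenced 75 bp reads, assigned them with kallisto to the build Mmul_10 and summarized them per gene with tximport. The values they deposited are whole numbers per Ensembl gene and animal, not normalized, and the unit was recorded as other because the table's layout could not be read by the unit check. A count model was therefore not run. The authors used DESeq2 for their own comparisons, and tool versions are not stated in the sources used here.

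Counts were scaled by TMM (30% of log ratios and 5% of mean levels trimmed) and log2 CPM values, with a prior of 2 counts, were fitted with limma 3.58.1 (trend and robust options) in R 4.3.3, with 1 mean per group over all 16 animals. Tested genes had 0.371 CPM or more in 2 or more animals, and a total of 15 or more. P values are two-sided and adjusted over all 19199 genes, and calls need an adjusted p below 0.05 and a 2-fold change. Permutation tests drew 100000 resamples. Simulated counts in which 200 genes carried a log2 change of 2 were used to check the fit. Each of the 5 planned comparisons, run on 18927 to 18946 genes, recovered 100% of those genes and called 2 to 8 unchanged genes. These figures hold for the simulated counts alone and do not give the power for the cartilage genes. In the data, HAPLN1 in LPS + Beta-Ac against preterm controls was at -3.08 (SE 1.03, limma adjusted p = 0.0549) and was not called. COL2A1 in LPS 5d against preterm controls, at -2.28 (SE 0.71), was called only narrowly (limma adjusted p = 0.0454).

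The 10 genes and the lists were chosen with earlier results of these data known. All 10 are named. From each list the text names called genes, up to 4 by adjusted p, and others named after their values were seen, such as SOX9. Genes most alike are the 10 with the highest Pearson r. The alternatives were limma-voom, other scalings, prior counts and filters, airway covariates, fits to the compared groups alone and leaving out each animal. Slopes on the airway scores and 3 direct comparisons were added after the data were seen. Coordinates and sequences are not given here. A result of the nerve and neuroendocrine list is not reported here.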

Additional observations from a re-analysis of the deposited data

Results flagged for a closer look

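In LPS 16h, COL9A1 in animal 029 stood apart from the rest of its group, at a log2 CPM of 6.64 where the nearest of the others was 5.87, a gap of 0.939 of the group's range. In all, 20 sets of 4 animals were examined in this way and chance marks about 1 in 20. Animal 029 also had the highest airway epithelium score of its group, 1.33. Animal 209 passed no such limit among the preterm controls.

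The LPS response differed between 16 hours and 5 days for 2 genes by a direct test, with a log2 fold change (LPS 5d over LPS 16h) of -1.61 for ACAN and 1.10 for MATN3. LPS + Beta-Ac and term controls differed for MATN3, at -3.04. The smooth muscle list was at 1670 to 2150 CPM in LPS 16h and lower in LPS 5d, at 1220 to 1420 CPM. It overlapped between LPS + Beta-Ac and term controls, at 1170 to 1520 CPM and 981 to 1550 CPM. Its median log2 fold change between those 2 groups was 0.02. With the smooth muscle score as a covariate both differences between the LPS times lost their calls, ACAN at -1.39 (limma adjusted p = 0.0626) and MATN3 at 0.62 (adjusted p = 0.274), while the call against term controls was kept.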

How the results depend on the processing

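With 2 to 4 animals a group and 1 library each, the calls of COL2A1, and of COL9A1 in LPS 16h, sat close to the threshold. MATN3 against preterm controls kept its call in every LPS group under all 9 other settings and with any of the 16 animals left out, and ACAN in LPS + Beta-Ac under all but the smooth muscle covariate. COL2A1 kept its call without animal 029, 092, 101 or 209, and in LPS + Beta-Ac also without 026. It lost it without any other animal, with adjusted p values up to 0.141 in LPS 5d, 0.136 in LPS + Beta-Ac and 0.186 in term controls. No paired analysis was possible because the groups share no animal numbers.

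Among the 10 genes, the number called in LPS 16h (2) became 1 with median-of-ratios scaling, 4 with the airway epithelium covariate, and 1 with the smooth muscle covariate or with the compared groups alone. In LPS 5d (3) it became 1 with limma-voom, with the smooth muscle covariate and with the compared groups alone. In LPS + Beta-Ac (3) it became 1 with the smooth muscle covariate. In term controls (1) it became 0 with limma-voom, with library totals, with the smooth muscle covariate and with the compared groups alone, and 2 with the airway epithelium covariate. The F test over 5 groups (3) gave 6 with the airway epithelium covariate and 1 with the smooth muscle covariate. The cause was not tested. Leaving out 1 animal at a time gave 1 to 3 calls in LPS 16h, 1 to 4 in LPS 5d, 2 to 4 in LPS + Beta-Ac, 0 to 1 in term controls, 0 in LPS + Beta-Ac against LPS 5d and 2 to 5 in the F test, and a median share of variance between groups of 41.3% to 52.4%. The relation of COL2A1 with FOXJ1 turned to -0.02 without 2 animals and -0.09 without animal 209, where r within groups was 0.63 and 0.22. COL11A1 in LPS + Beta-Ac ranged from -0.66 to 0.01, the latter without animal 209. Scaling by library totals moved the median of all genes in LPS 16h from -0.09 to -0.29, and COL9A2 was then called there, at -1.30. Of the other values of single genes, 397 stayed on their side of the threshold, 9 crossed it upward and 21 downward.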
